A study of Rattus norvegicus with 6 samples.

Results

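A rat promoter tiling array carried 2338 autosomal promoter tiles that were covered by the shortest probes of the design, and their methylation signal was described in ovarian granulosa cells. Neighbouring probes formed a tile as long as their starts were at most 1000 bp apart, and a tile was included where it held at least 5 probes with a mean probe length of at most 46 bases. Probes of the design ran from 45 to 60 bases. The 2338 short-probe tiles were 14.5% of the 16174 tiles on the array, and no signal entered their choice. Short probes stood in for a high GC content. That content was not measured here, because the positions are those of the rat build rn4 and no sequence of that build was used, so the tiles are called short-probe tiles and are named by position, without genes.

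The cells came from female Sprague Dawley offspring at 56 days of age. Their dams had been gavaged with water (control, 0 mg/kg) or with cadmium chloride (8 mg/kg body weight) from gestation day 1 to 21. There were 3 arrays per group, which the labels give as biological replicates without saying if 1 animal or a pool of animals went onto an array, or if litters were separate. The cells were pressed out of punctured follicles and strained, with no marker sort named, and granulosa markers could not be checked on tiles without gene names. The comparison asked whether cadmium reaching the dam in pregnancy altered the methylation of granulosa cell DNA in daughters that had grown up.

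Granulosa cells surround the oocyte, convert androgens to oestradiol and supply the oocyte with nutrients. In methylated DNA immunoprecipitation, an antibody against 5-methylcytosine captures DNA fragments, and capture grows with the number of methylated CpG sites on a fragment. GC-rich promoters are often CpG islands, which in most somatic cells carry little methylation, and DNA methyltransferases are the enzymes that add methyl groups to CpG sites. Captured DNA carried the dye Cy5 and input DNA the dye Cy3 on the same array, per the labels. Values below are the log2 ratio of Cy5 over Cy3, with the array's median probe at 0, so a ratio of 1 is 2-fold above that median. A tile's ratio is the mean of its usable probes.

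Cadmium replicate 2 stood apart from the other 5 arrays and was scanned alone. Control replicates 1 and 2 were scanned together with cadmium replicate 1, and control replicate 3 together with cadmium replicate 3. Across short-probe tiles, the ratios of the other 5 arrays correlated at r = 0.974 to 0.988, and those of cadmium replicate 2 with them at r = 0.892 to 0.915 (tiles are no independent replicates, so these r describe the arrays). The median net input signal of short-probe probes, spot minus local background, was 412 on cadmium replicate 2 and 65.0 to 133 elsewhere. The input was well above background for 87.9% of these probes on control replicate 3, for 93.8% on cadmium replicate 3 and for 98.6% to 98.8% on the other 4 arrays. No probe of these tiles was saturated.

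The tiles were unequally spread over the chromosomes. They held 22587 probes, with a median of 10 per tile (5 to 37) over a median of 1669 bp (670 to 7301 bp). Other autosomal tiles with at least 5 probes had medians of 10 probes and 1667 bp and reached 538 probes and 99717 bp. Of the probes in short-probe tiles, 83.1% had the minimum length of 45 bases, against 44.0% in the 12802 other tiles. In 353 tiles (15.1%) every probe had 45 bases. Short-probe tiles were 24.2% of the tiles on chromosome 20, 22.5% on chromosome 12 and 22.3% on chromosome 19, but 8.70% on chromosome 2 and 7.79% on chromosome 11. Over all 20 autosomes the share was 15.1%. The median distance to the nearest other tile was 25456.5 bp for short-probe tiles and 30319 bp for the other tiles. After probes with dim input or an outlier flag on any array were left out, 16693 probes (73.9%) were used, against 76.9% of probes in the other tiles. At least 3 usable probes were left in 2315 short-probe tiles, which were tested, and 23 were not tested.

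Short-probe tiles had a higher mean ratio of captured over input DNA than other autosomal tiles on all 6 arrays. In control offspring the difference shrank from 1.29 to 0.11 when probes were centred by length. Length defined the set, so that centring takes out any part of the difference that goes with length, whatever its source. The mean ratio of short-probe tiles was 0.68, 0.75 and 0.78 on control replicates 1, 2 and 3. It was 0.76, 0.34 and 0.78 on cadmium replicates 1, 2 and 3. The means of the other tiles lay between -0.57 and -0.47 on these arrays. Cadmium replicate 2 was thus the lowest array for short-probe tiles, while the other 5 lay between 0.68 and 0.78. The short-probe tiles exceeded the other tiles by 1.29 ± 0.041 on control and 1.13 ± 0.26 on cadmium arrays (SD, n = 3 each), and by 0.82 on cadmium replicate 2 alone. Relative to each array's median, the captured channel was 1.01 ± 0.059 in short-probe tiles and -0.32 ± 0.030 in other tiles of control offspring (SD, n = 3), and input was 0.19 ± 0.083 and 0.15 ± 0.024. These levels come from different probes, whose lengths differ between the sets.

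**Figure D1:**
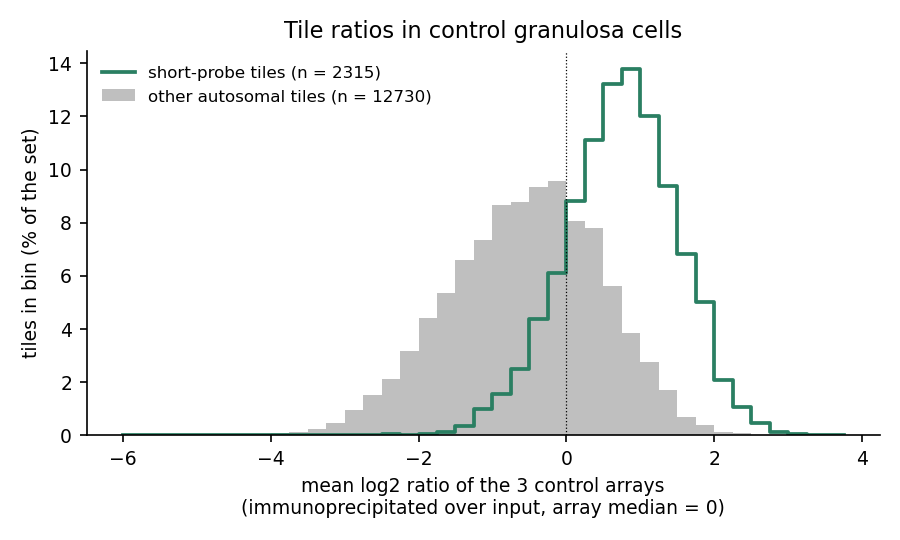
Share of tiles (y axis, percent of each set) by mean log2 ratio of captured over input DNA on the 3 control arrays (x axis, bins of 0.25), for 2315 short-probe tiles (line) and 12730 other autosomal tiles (bars). The short-probe tiles centre on 0.77 and the others on -0.50.

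Individual tiles ranged widely within the set. The mean control ratio ran from -2.45 to 3.03 with a median of 0.77 and quartiles of 0.25 and 1.25, against a median of -0.50 in the other tiles. Of the other tiles, 9.26% lay above the median of the short-probe tiles. A ratio above the array median on all 6 arrays was found for 1723 short-probe tiles (74.4%), against 30.5% of all tiles tested, and one below it on all 6 for 270 (11.7%), against 54.4%. Enrichment over 2-fold on all 3 control arrays was found for 756 short-probe tiles (32.7%, against 8.72% of all tiles). On all 3 cadmium arrays it was found for 157 (6.78%, against 1.71%). With cadmium replicate 2 set aside, 738 short-probe tiles were enriched on all 5 remaining arrays (31.9%, against 8.34%). Depletion over 2-fold on all 6 arrays was found for 6 short-probe tiles (0.259%, against 18.4% of all tiles).

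**Figure D2:**
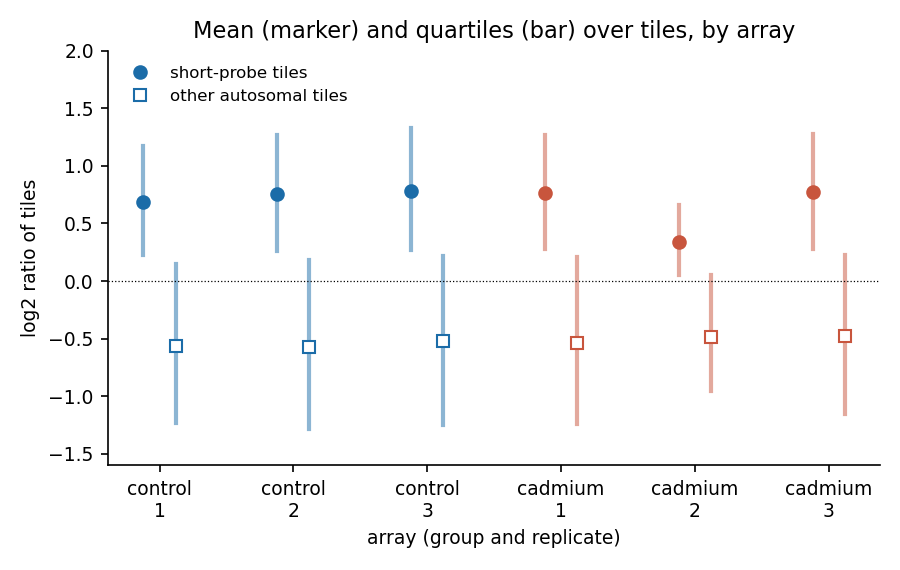
Mean log2 ratio (marker) and quartiles (bar) over short-probe tiles (filled circles) and other autosomal tiles (open squares) on each of the 6 arrays, control in blue and cadmium in red. Short-probe means lie between 0.68 and 0.78 except on cadmium replicate 2, at 0.34.

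Probe length, which defined the set, also ordered the tiles inside it. The 340 tested tiles made only of 45-base probes averaged 1.18 ± 0.071 over the control arrays and 1.00 ± 0.37 over the cadmium arrays (SD, n = 3 each). Tiles of mean length over 45.5 and up to 46 bases (1106 tiles) had 0.54 ± 0.045 and 0.46 ± 0.20. At the edge of the definition the values ran on without a step. The 275 tiles of mean length over 45.9 and up to 46 bases had a mean control ratio of 0.37, and the 114 tiles just outside, up to 46.1 bases, had 0.43. Nearest inside, tiles with a mean of exactly 46 bases on chromosome 1 from 12947143 to 12948622 and from 41920935 to 41922408 had control ratios of 0.61 ± 0.056 and 0.094 ± 0.040 (SD, n = 3). Nearest outside, the control ratios were 0.43 ± 0.11 on chromosome 20 (3809995 to 3813725) and -0.21 ± 0.076 on chromosome 8 (112788427 to 112790772; SD, n = 3).

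The same order held for single probes. In short-probe tiles of control offspring, 45-base probes had a mean ratio of 1.02 ± 0.059, 46-base probes -0.076 ± 0.023 and the few probes of 53 to 60 bases -1.81 ± 0.030 (SD, n = 3 arrays). The shortest probes were therefore the only length class above the array median. Within a tile, probes of 48 or more bases lay below the 45-base probes of that tile by a mean of -2.01, -2.10 and -2.10 on control replicates 1, 2 and 3, over the 1198 tiles that held both. They were lower in 83.8% to 84.4% of those tiles on control arrays. On cadmium replicate 2 the mean was -1.24, and on cadmium replicates 1 and 3 it was -2.09 and -2.01.

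Part of the excess over other tiles was still present at equal length. Among 45-base probes alone, the mean was higher in short-probe tiles than in other tiles by 0.31 ± 0.024 in control offspring (0.28, 0.31 and 0.33 on the 3 arrays) and by 0.25 ± 0.10 in cadmium offspring (0.31, 0.13 and 0.31; SD, n = 3). With every probe centred on the median of its length class, the excess of short-probe tiles in control offspring was 0.11, against 1.29 without that step. That step acts on the length that defined the set, so the fall cannot separate sources of the excess. The excess was 0.66 when only probes with both channels well above background entered. Such probes made up 89.8% of the usable probes in short-probe tiles and 69.0% in other tiles. Because this filter uses the captured channel, part of the ratio compared, it drops low ratios more readily, and 0.66 is no separate estimate. How far methylation, base composition and hybridisation each make up this excess was not tested.

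**Figure D3:**
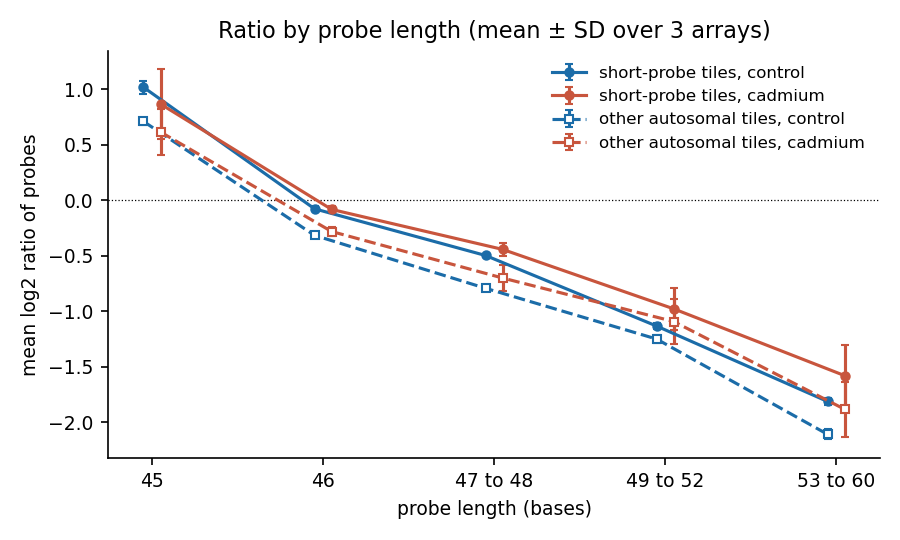
Mean log2 ratio (y axis, ± SD over 3 arrays) of usable probes by length in bases (x axis), in short-probe tiles (filled, solid lines) and other autosomal tiles (open, dashed lines), for control (blue) and cadmium (red) offspring. In control offspring the short-probe line falls from 1.02 at 45 bases to -1.81 at 53 to 60 bases.

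The signal differed little over the middle of short-probe tiles and lower towards their ends. In control offspring, probes within 250 bp of the tile's centre had a mean ratio of 0.78 ± 0.053, probes 250 to 500 bp away 0.85 ± 0.061 and probes 750 to 1000 bp away 0.42 ± 0.036 (SD, n = 3 arrays). The drop from 250 to 500 bp to the ends was -0.42 ± 0.031, and -0.34 ± 0.036 among 45-base probes alone. In the other tiles it was close to that, at -0.39 ± 0.0099 and -0.33 ± 0.026. The dip at the centre was shallow, at -0.050 ± 0.011 among 45-base probes, and it was -0.14 ± 0.022 in the other tiles. In cadmium offspring the drop to the ends was -0.37 ± 0.11 and the dip among 45-base probes -0.044 ± 0.014 (SD, n = 3). These differed from control by less than the spread between cadmium arrays.

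**Figure D4:**
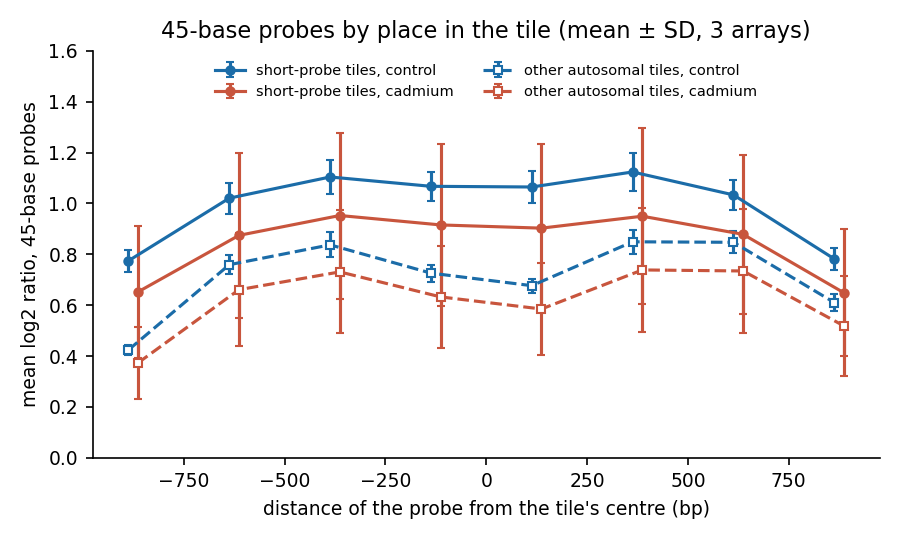
Mean log2 ratio of 45-base probes (y axis, ± SD over 3 arrays) by distance from the tile's centre (x axis, windows of 250 bp), in short-probe tiles (filled, solid lines) and other autosomal tiles (open, dashed lines), for control (blue) and cadmium (red) offspring. In short-probe tiles of control offspring the mean is 0.77 and 0.78 in the outermost windows and 1.02 to 1.12 in the 6 between them.

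Neighbouring probes of a tile differed widely, while the tile's mean ratio varied little between control arrays. The median SD over the usable probes of a short-probe tile was 1.62 in control offspring (1.92 in other tiles), while the median SD of a tile's ratio over the 3 control arrays was 0.10. These SDs are unlike, since the first is over single probes and the second is of a mean over probes. Probes on both sides of the array median were present in 2022 short-probe tiles (87.3%, against 91.8% of other autosomal tiles). The tile on chromosome 1 from 78525663 to 78526743 shows this. Its 6 probes had mean control ratios of -3.51, -2.65, -0.22, 1.74, -3.83 and -2.45 in order of position. Only the fourth lay above the array median.

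The most enriched short-probe tiles with at least 5 usable probes lay on chromosomes 10, 12, 4, 1 and 5. The tile at 108516514 to 108518222 on chromosome 10 showed ratios of 2.81, 2.79 and 2.95 on the control arrays and 2.93, 1.46 and 2.81 on cadmium replicates 1, 2 and 3. The tile at 16398830 to 16400464 on chromosome 12 showed 2.57, 2.66 and 3.05 in control, and 2.75, 1.29 and 2.87 in cadmium offspring. In both tiles cadmium replicate 2 was the lowest array by far and the other 5 overlapped between groups. The tiles at 67395067 to 67396702 (chromosome 4), 197044938 to 197046539 (chromosome 1) and 153459290 to 153461053 (chromosome 5) had control ratios of 2.75 ± 0.14, 2.72 ± 0.15 and 2.63 ± 0.17 (SD, n = 3). In 4 of these 5 tiles all probes had 45 bases. The tile on chromosome 10 rests on 5 usable probes of 11. With dim probes kept, the control ratios in the order named were 2.18, 2.34, 2.32, 2.61 and 2.56. With outlier spots kept they were 2.91, 2.76, 2.67, 2.72 and 2.14. After centring by probe length they were 1.55, 1.46, 1.45, 1.42 and 1.33.

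The least enriched tiles were well below the array median. Their mean probe lengths were 45.7 to 46 bases, above the median of 45.5 for short-probe tiles. The tile at 86911244 to 86912782 on chromosome 13 showed ratios of -2.31, -2.28 and -2.76 in control and -2.17, -1.95 and -2.26 in cadmium offspring, so the groups were narrowly apart (limma, adjusted p = 0.856). The tile on chromosome 1 from 78525663 had -1.95, -1.85 and -1.65 in control and -1.56, -1.36 and -1.59 in cadmium offspring, again without overlap (limma, adjusted p = 0.856). Captured DNA was well above background on all 6 arrays for 3 of its 6 probes, and these alone gave a control ratio of -0.31. The value of -1.82 for the whole tile thus rests in part on dim spots. That filter acts on the captured channel, part of the ratio itself, so it drops low ratios more readily. The other 3 tiles of this end spanned 209585734 to 209587685 (chromosome 1), 89170244 to 89172012 (chromosome 10) and 69889157 to 69890833 (chromosome 7). Their control ratios were -1.64 ± 0.19, -1.55 ± 0.13 and -1.50 ± 0.062 (SD, n = 3). With that filter, which kept only probes above background in both channels, these became -0.82, -1.50 and -1.40. The ratio of the tile on chromosome 13 became -2.02. After centring by probe length the control ratios, in the order named, were -3.75, -2.54, -2.40, -2.23 and -2.33.

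Tiles picked by shape alone filled the range between. Of the first 3 tiles with only 45-base probes by position, all on chromosome 1, the one from 76738147 to 76739834 had a control ratio of 1.74 ± 0.11. Those from 64088130 to 64089845 and from 78340084 to 78341489 had -0.17 ± 0.14 and 0.059 ± 0.20 (SD, n = 3). The shortest length class thus held tiles at the array median as well as strongly enriched ones. The 3 tiles with most probes lay on chromosome 1 from 95546183 to 95553483 (37 probes) and on chromosome 7 from 114226736 to 114233352 (34 probes) and from 114237287 to 114241885 (27 probes). Their control ratios were 0.71 ± 0.045, 0.62 ± 0.064 and 0.42 ± 0.090 (SD, n = 3), close to the middle of the set. By chromosome, the mean control ratio of short-probe tiles was highest on chromosome 17 (0.93 ± 0.067, 52 tiles) and lowest on chromosome 18 (0.60 ± 0.053, 41 tiles; SD, n = 3 arrays).

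No short-probe tile passed the test of cadmium against control offspring, which was fitted on all 15846 tested tiles (limma, Benjamini-Hochberg adjustment, lowest adjusted p = 0.856), where 0.00631% of all tiles passed at 0.05. At an unadjusted p under 0.05 there were 18 of 2315 short-probe tiles (0.778%), a share below the 3.57% of all tiles. Of these 18, 10 were higher in cadmium offspring (0.432% of short-probe tiles, against 3.26% of all tiles) and 8 were lower (0.346%, against 0.303%). Whether short-probe tiles differ from the rest in these shares was not tested. The groups did not overlap in 117 short-probe tiles (5.05%, against 10.2% of all tiles), of which 45 were higher in cadmium offspring (1.94%, against 7.95%) and 72 lower (3.11%, against 2.28%). The median 95% confidence interval had a half-width of 0.35 around the difference without adjustment. The limit for an adjusted call was larger, since differences of 0.50 and 0.54 did not pass.

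Every array left out moved the count at an unadjusted p under 0.05. It was 9, 8 and 10 without control replicates 1, 2 and 3, and 98, 34 and 68 without cadmium replicates 1, 2 and 3 (limma). Of all tiles, 1.57%, 1.36% and 2.22% were at such a p without control replicates 1, 2 and 3, and 10.1%, 4.62% and 4.17% without cadmium replicates 1, 2 and 3. No short-probe tile passed the adjusted test in any of these 6 fits, in which 0.0189% of all tiles passed without cadmium replicate 2 and 0% otherwise. The split between directions also moved with the scaling. Tiles higher in cadmium offspring were 10 of 18 (55.6%) as centred here, 7 of 16 (43.8%) after loess. Once all arrays had been given equal spread they were 5 of 14 (35.7%). After centring by probe length they were 28 of 37 (75.7%). Normexp correction gave 3 of 44 (6.82%) and the deposited values 6 of 22 (27.3%). The split of all tiles moved with the scaling too, from 91.5% higher as centred here to 84.7%, 48.3%, 80.7%, 13.5% and 50% in these 5 settings, in the order given. Of all tiles, 2.43%, 0.953%, 3.21%, 1.4% and 1.63% were at an unadjusted p under 0.05 in the same order. With scan batch as a block, 2 short-probe tiles passed (0.151% of all tiles passed) and with array weights 4 (0.669% of all tiles passed). None passed under the remaining settings. There, the share of all tiles that passed was 0.0379% with scan batch as a random block, 0.0189% after quantile normalization and in the deposited table, 0.0126% with trend and robust moderation and 0.0122% with a tile gap of 500 bp. It was 0.00629% with outlier spots set to missing, 0.00625% with them kept, and 0.00631% or 0% elsewhere.

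The short-probe tiles with the smallest p and groups apart lay mostly below the array median when higher in cadmium offspring. The tile on chromosome 20 from 3467553 to 3469019 (9 probes, 6 usable) had ratios of -0.54, -0.34 and -0.45 in control and 0.11, -0.14 and 0.21 in cadmium offspring. All 3 cadmium arrays lay above all controls. The difference was 0.50 (SE 0.13, 95% confidence interval 0.21 to 0.80, limma adjusted p = 0.856). A second tile of that chromosome, from 3597340 to 3599244 (8 probes, 5 usable), had 0.25, 0.39 and 0.21 in control and 1.09, 0.46 and 0.94 in cadmium offspring. Here cadmium replicate 2 came nearest to the controls. The difference was 0.54 (SE 0.17, 95% confidence interval 0.17 to 0.92, limma adjusted p = 0.856). These were the 2 short-probe tiles that passed with scan batch as a block, with differences of 0.60 and 0.75 (limma adjusted p = 0.0280 and 0.00284). Both also passed with array weights, with differences of 0.62 and 0.64 (limma adjusted p = 0.00627 each). Not all 4 tiles that passed with array weights are among those named for their p. Cadmium replicate 2 has no partner in the fit with scan batch as a block. The 2 tiles had been chosen from the same arrays for groups apart, so neither fit gives separate support. Over the alternatives their adjusted p ran from 0.00627 to 1.00 and from 0.00284 to 1.00 (limma). After normexp correction their differences were 0.26 and 0.32.

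The other 4 tiles named as higher had smaller differences. On chromosome 8, the tile from 32103919 to 32105505 had -0.76, -0.87 and -1.03 in control and -0.58, -0.33 and -0.34 in cadmium offspring. Its difference was 0.47 (SE 0.13, limma adjusted p = 0.856), and it was 0.23 among the arrays scanned with cadmium replicate 1 and 0.69 among those scanned with cadmium replicate 3. With array weights it passed, with a difference of 0.46 (limma adjusted p = 0.0435, range over the alternatives 0.0435 to 1.00). It was 0.22 with dim probes kept and 0.21 after normexp correction. The tiles at 87512113 to 87513775 (chromosome 13), 112847836 to 112849610 (chromosome 7) and 69843012 to 69844747 (chromosome 8) differed by 0.33, 0.40 and 0.37, and by 0.15, 0.098 and 0.053 after normexp correction. Their control ratios were -0.93, -1.34 and -1.34.

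Tiles named as lower in cadmium offspring lay both above and below the array median. On chromosome 20, the tile from 4338204 to 4339988 (11 probes, 10 usable) had -0.41, -0.33 and -0.24 in control and -0.80, -0.68 and -0.51 in cadmium offspring. The difference was -0.34 (SE 0.12, 95% confidence interval -0.61 to -0.062, limma adjusted p = 0.856). Chromosome 6 held a tile at 32252063 to 32253785 with 0.40, 0.36 and 0.39 in control and 0.17, 0.060 and 0.10 in cadmium offspring, a difference of -0.27 (SE 0.11, limma adjusted p = 0.856). Both groups were tight in this tile, with SDs of 0.020 and 0.057. On chromosome 12, the tile at 42137865 to 42139505 showed 1.99, 1.92 and 2.01 in control and 1.86, 0.96 and 1.59 in cadmium offspring. Its difference of -0.50 (SE 0.20, limma adjusted p = 0.856) was -0.25 without cadmium replicate 2. The tiles at 186192382 to 186193998 (chromosome 1), 3776778 to 3778363 (chromosome 20) and 74676248 to 74677893 (chromosome 9) differed by -0.37, -0.36 and -0.26, and by -0.22, -0.22 and -0.20 without that array.

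**Figure D5:**
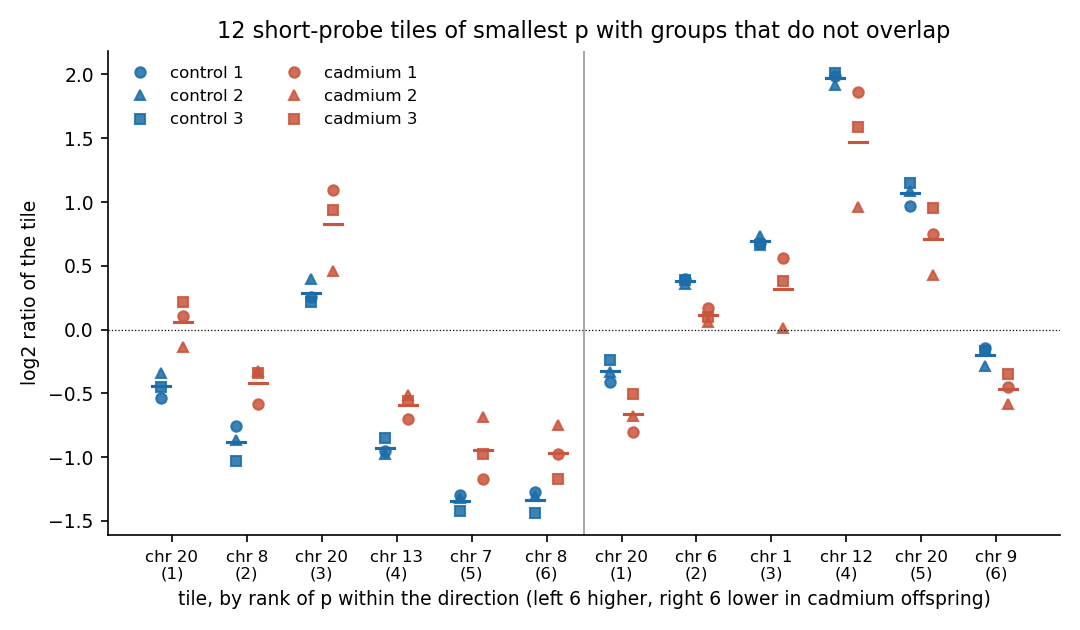
Log2 ratio (y axis) of 12 short-probe tiles on each array, for control (blue) and cadmium (red) offspring, with circles, triangles and squares for replicates 1, 2 and 3 and bars for the group means. The left 6 were named as higher and the right 6 as lower in cadmium offspring, each by smallest p among tiles whose groups did not overlap, and none passed the adjusted test.

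The channel that differed was not the same in all of these tiles. In the tile on chromosome 20 from 3467553, input was lower in cadmium offspring by -0.48 (SE 0.13) and captured DNA differed by 0.033 (SE 0.13). In the tile from 3597340 on that chromosome the values were -0.59 (SE 0.15) for input and -0.036 (SE 0.098) for captured DNA. Input also held the difference in the tile from 4338204, with 0.34 against 0.015. In the tile on chromosome 6 from 32252063, captured DNA differed by -0.22 (SE 0.11) and input by 0.037 (SE 0.11). Of the 18 short-probe tiles at an unadjusted p under 0.05, input moved more than captured DNA in 6 of the 10 that were higher and in 5 of the 8 that were lower. No short-probe tile passed in either channel alone (limma), with 25 at an unadjusted p under 0.05 for input (1.08%, against 1.56% of all tiles) and 21 for captured DNA (0.907%, against 3.13%). Adjusted over all tiles, 0.00631% passed for input and 0% for captured DNA.

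Of the 115 tested short-probe tiles on chromosome 20, 5 had an unadjusted p under 0.05, and these were 5 of the 18 such tiles among 2315. This count was noted after the values were seen and was not tested. Over the array, 0.778% of short-probe tiles and 3.57% of all tiles had such a p. The share of all tiles on chromosome 20 is not given here. In 4 of the 5 tiles, named above, starts lay between 3467553 and 4338204. Chromosome 13 had the highest share of short-probe tiles whose groups did not overlap, 8 of 57 (14.0%), against 10.2% of all tiles on the array. It was picked as the highest of 20 chromosomes after the values were seen, and it was not tested. The share of all tiles on chromosome 13 is not given here. Chromosomes 11 and 17 had none among 32 and 52.

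The direction of the typical short-probe tile turned on cadmium replicate 2. The median difference over short-probe tiles was -0.12, against 0.028 over all tiles. Without that array it was 0.030, against 0.040. Among the arrays scanned with cadmium replicate 1 it was 0.046, against 0.030 over all tiles. Among those scanned with cadmium replicate 3, where each group had 1 array, it was -0.0083, against 0.039 over all tiles. With all arrays, 20.3% of short-probe tiles were higher in cadmium offspring, against 56.2% of all tiles. Without cadmium replicate 2 the shares were 62.7% and 65.5%. The median difference was 0.17 in the 36 tiles with control ratios under -1 and -0.34 in the 88 tiles with control ratios over 2. Without cadmium replicate 2 these medians were 0.054 and 0.028. The control ratio enters both quantities, so these values only describe the tiles. Cadmium replicate 2 had a narrower range in both sets of tiles. The SD over short-probe tiles was 0.47 on that array and 0.73 to 0.80 on the other 5. Over other autosomal tiles it was 0.75 on that array and 0.98 to 1.05 on the other 5. How far this range makes up the median differences was not tested.

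Single probes gave the same count of calls. None of the 16693 usable probes in short-probe tiles passed (limma, adjusted over all 132042 probes, of which 0% passed, lowest adjusted p = 0.910 in short-probe tiles). At an unadjusted p under 0.05 there were 269 (1.61%, against 3.13% of all probes), of which 178 were higher in cadmium offspring (1.07%, against 2.68%) and 91 lower (0.545%, against 0.449%). The 3 probes of smallest p were those at 2984452 to 2984497 (chromosome 20), 76337827 to 76337877 (chromosome 1) and 133131120 to 133131171 (chromosome 6). Their mean ratios were -6.86, -3.94 and -5.24 in control and -5.09, -2.31 and -3.89 in cadmium offspring. Captured DNA at these probes was not well above background on any control array, and above it on cadmium arrays only in 2 of 3 arrays for the probe on chromosome 1, so no fold change is given. These probes had 46, 51 and 52 bases and lay at -776, -760 and -852 bp from the centre of their tiles.

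The authors' deposited log2 values gave a like picture of levels and a narrower gap between groups. Short-probe tiles averaged 0.72 ± 0.0070 over control and 0.70 ± 0.038 over cadmium arrays, and other autosomal tiles -0.20 ± 0.017 and -0.20 ± 0.020 (SD, n = 3 each). Across short-probe tiles these values correlated with the scanner ratios of the same array at r = 0.947 to 0.963 (across tiles, as a description), in the direction of Cy5 over Cy3. Column medians lay between -0.034 and 0.027, and its scaling and centring are unknown here.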

How the data were processed

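Per the file headers, the authors' scanner files were made with Agilent Feature Extraction 11.0.1.1, whose processed intensity has the background subtracted and a linear dye scaling applied. The deposited value table holds log2 values, and the submitters' processing notes name limma. Log2 ratios of the processed intensities were centred on each array's median over 172669 probes, without loess or quantile steps. Usable probes had input well above background on all 6 arrays, and neither of their channels was flagged as an outlier on any (132042 probes). Tiles holding 3 or more usable probes were compared with lmFit and eBayes of limma 3.58.1 (R 4.3.3, data.table version 1.17.8, figures with matplotlib 3.10.9), two-sided, without covariates, adjusted over all tiles. Each channel and single probes were fitted alike, and the steps were tested on simulated data. No probe had equal values in both channels on 2 arrays.

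Named tiles, with at least 5 usable probes, were the 6 of smallest p in each direction whose groups did not overlap, the 5 highest and 5 lowest control ratios, the 3 of shortest mean length, the 3 with most probes and 2 on either side of the length threshold, and of probes the 3 of smallest p. The members and lists were chosen with earlier results of these data known. Unplaced sequence was not counted as autosomal. Precision is limited by how few arrays there were, and the p-values reflect only how these samples vary, which may be technical.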

Additional observations from a re-analysis of the deposited data

How the results depend on the processing

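Alternatives covered the scaling, background, filters, moderation, blocks, tile rules and each array. No short-probe tile passed under any of them except 4 with array weights and 2 with scan batch as a block (limma), and no probe of these tiles passed in any of the fits run on probes. At an unadjusted p under 0.05, the 18 tiles became 28 after quantile normalization, 37 after centring by probe length, 44 after normexp, 8 with both channels above background, 149 with array weights, 86 with scan batch as a block, 62 with it as a random block and 48 with a mean length of at most 47 bases. Of all tiles, 3.57% had such a p here, and 2.28%, 3.21%, 1.4%, 1.08%, 16.6%, 8.18%, 7.82% and 3.57% in these 8 settings, in the order given. Of short-probe tiles, the share was 0.778% here and, in the same order, 1.21%, 1.6%, 1.9%, 0.348%, 6.44%, 3.71%, 2.68% and 1.02%. Leaving out 1 array gave 8 to 98. Among all tiles, 1 passed here, 106 with array weights, 24 and 6 with scan batch as a block or random block, 3 after quantile normalization, in the deposited table and without cadmium replicate 2, 2 with trend and robust moderation and with a tile gap of 500 bp, and 0 where dim probes were kept, where both channels had to be above background, with equal spread, with medians of probes, with the replicate block and without any 1 of the other arrays.

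The median difference of short-probe tiles, -0.12, turned to 0.023 after centring by probe length and to 0.024 with scan batch as a block. With 1 array left out it lay between -0.19 and 0.030, above 0 without cadmium replicate 2. It was -0.023 after quantile normalization, -0.044 with equal spread, -0.030 in the deposited table, -0.11 after loess and -0.15 after normexp. The median over all tiles was 0.014, -0.036, -0.0021, 0.038 and -0.070 in the same order. The excess over other tiles in control offspring, 1.29, was 0.89 after loess, 1.22 after quantile normalization, 1.21 with equal spread, 0.11 after centring by probe length, 0.73 after normexp, 0.66 with both channels above background, 1.34 with outlier spots kept, 1.42 with medians of probes, 0.93 in the deposited table and 1.23 with a mean length of at most 47 bases, and it stayed between 1.28 and 1.32 with 1 control array left out. The cause was not tested. The 12 tiles named for their p kept their direction in all 22 alternatives run on them, to which their choice contributes, but not their size. After normexp the tile on chromosome 8 from 69843012 differed by 0.053 (SE 0.081), against 0.37 here.

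Replicate numbers are shared between groups, and whether they pair the arrays is not known here. Deviations from the group means correlated at -0.19, -0.10 and 0.37 for numbers 1, 2 and 3. Arrays of unlike number gave -0.40 to 0.34. With 3 arrays per group, whose deviations depend on each other, these values cannot settle a pairing. With the replicate block, 0 short-probe tiles passed and 28 (1.21%, against 3.63% of all tiles) had an unadjusted p under 0.05 (limma), and 0 probes of these tiles passed. Captured DNA near background limits the lowest ratios.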
